A study of Arabidopsis thaliana with 48 samples.

Results

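The heat response of wild-type nuclei of Arabidopsis thaliana was read from 12 of the 48 RNA-seq libraries of the series. There were 6 libraries from nuclei of Col-0 plants moved to 37 °C for 3 h and harvested with no recovery, and 6 from nuclei of Col-0 plants kept at 21 °C. They were chosen by genotype, fraction and temperature in the labels, and every gene of the count table was described, 27420 in all. Col-0 is the common laboratory wild type. Plants were 14 d old, on soil or medium, in long days of 16 h light at 21 °C and 8 h dark at 18 °C. A stratification of 48 h in the cold was the same for all libraries. Nuclei were prepared from rosettes by differential centrifugation (the tissue label says seedling), so the cell types of the rosette are pooled, and the values describe RNA present in nuclei, not the rate at which it was made. The other 36 libraries hold the cytoplasm of Col-0 and both fractions of tho5ab, in which THO5A and THO5B are mutated together. Their proteins belong to THO, which couples the making of mRNA to its export. The series asks about export in that mutant under heat. The labels used here give neither the hour of harvest nor whether the libraries of a group came from separate plants. The p-values therefore rest on a spread between libraries, estimated over all 48, which may be technical.

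Plants answer a steep rise in temperature mainly through heat shock transcription factors (HSFs), which bind heat shock elements, inverted repeats of the bases GAA, in promoters. Factors of the HSFA1 group are present before stress and switch on genes for chaperones and for further factors such as HSFA2, which prolong the response. The chaperones then hold, refold or pull apart damaged proteins in the cytosol, plastid, mitochondrion and endoplasmic reticulum (ER), while growth, cell division and many defence genes are commonly turned down.

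Among the genes that rose by at least 5 on the log2 scale, 9 of 47 carry a heat shock element of 3 GAA units in the window searched. The 6 whose element lies before the start are shown, because such letters are what heat shock factors bind, while in HSP70, Hop3 and AT1G03070 it lies after the start. The heat shock element of 3 units (GAA, TTC and GAA with 2 bases between units, or TTC, GAA and TTC on the other strand) was searched in the 250 bases before and 50 bases after each annotated start. Capitals mark the element and lower case its flanks of 15 bases. Each is written 5′ to 3′ on the strand of its gene, from the RefSeq genome TAIR10.1.
AT1G53540, a cytosolic small heat shock protein of the HSP20 family, chr1:19980231-19980273, plus strand: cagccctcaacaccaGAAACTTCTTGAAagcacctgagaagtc
HSP17.4, a cytosolic small heat shock protein, chr3:16984939-16984981, minus strand: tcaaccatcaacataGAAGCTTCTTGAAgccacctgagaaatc
HSFA7B, a heat shock factor, chr3:23399064-23399106, plus strand: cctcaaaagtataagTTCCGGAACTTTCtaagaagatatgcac
AT1G71000, a J-domain co-chaperone, chr1:26770276-26770323, minus strand: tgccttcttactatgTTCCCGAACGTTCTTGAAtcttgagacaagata
HSFA2, a heat shock factor, chr2:11135521-11135563, plus strand: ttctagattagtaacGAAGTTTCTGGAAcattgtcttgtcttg
GolS1, galactinol synthase, chr2:19370551-19370593, minus strand: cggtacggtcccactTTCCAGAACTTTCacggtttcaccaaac
The element of AT1G53540 began 53 bases before the start, that of HSFA2 88, that of GolS1 100 and that of HSFA7B 157. In AT1G71000 the capitals run on to 18 bases, since 2 overlapping matches give 4 units in a row. HSP17.4 holds a second element nearer to its start, not shown.
For HSFA2, which had the strongest rise among the heat shock factors with more than 100 CPM at 37 °C, the whole stretch before the start (chr2:11135374-11135623, plus strand) is given to show the element in its setting, again with the element in capitals.
HSFA2 promoter: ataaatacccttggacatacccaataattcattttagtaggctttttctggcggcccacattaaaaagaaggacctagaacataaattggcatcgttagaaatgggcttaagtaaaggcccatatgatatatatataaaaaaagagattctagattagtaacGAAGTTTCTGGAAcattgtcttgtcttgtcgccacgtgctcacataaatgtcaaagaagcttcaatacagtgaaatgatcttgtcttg

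The libraries held 3009825 to 15464203 counts at 21 °C and 5233564 to 16618929 at 37 °C, and 21413 to 25610 and 21883 to 23360 genes had at least 1 count. Levels are given as CPM, read counts scaled by library total and TMM factor, as the lowest, median and highest of the 6 libraries of a group. Log2 fold changes are 37 °C against 21 °C with an approximate standard error (n = 6 libraries in each group), given as value ± error after the levels, from edgeR's quasi-likelihood test over all 48 libraries, and a gene was called when its Benjamini-Hochberg adjusted p over all tested genes was under 0.05. Log2 CPM of libraries correlated within a group at 0.903 or more and between groups at 0.756 to 0.851. In 4 of the 12 libraries (21 °C replicates 4 and 7, 37 °C replicates 2 and 3) genes nested in a gene of the other strand took a much larger count than in the other 8, so genes that overlap on opposite strands cannot be separated from their partner there. Of the genes named below, this holds for HSP101, CLPB3, CPN60BETA2, Hop3, HOP2, MBF1C, FES1A, P23-1, P23-2, BAG7, HSP17.4, HSFA3, HSFA1B, HSFB2B, HSFC1, DREB2A, DREB2B, CBF3, ERDJ3A, LHCA4, LHCB1.3, LHCB2.3, RCA, CRD1, PORB, NOP56, UBQ14, NBR1, ATG8A, RAE1, LOS4, ALY3, MTR4, HTA9, HTA13, HMGB1, LNK1, GSTF12, CHS, FLS2, BAK1, PYL7, COR15B, GolS1, BAM3, FUC1, WRI4, HCF164, HSC70-3, CPHSC70-2, NAC078, EXT10 and AT3G41762. Near copies, with which reads may be shared, exist for DREB2B, BIP1, BIP2, LHCB1.1, LHCB1.2, LHCB1.3, LHCB2.3, RBCS2B, PYL7, COR15B, EXT10 and AT3G41762. Of the called genes, 8141 had a value in both kinds of library, and 8127 of these kept the same sign in both. Of all called genes, 7595 were also called, in the same direction, by a fit without such libraries, which called 8806 of 19047 genes. In Col-0 cytoplasm such libraries were replicates 1, 4 and 7 at 21 °C and replicate 6 at 37 °C. In tho5ab nuclei they were replicates 1, 4 and 5 at 21 °C and replicate 4 at 37 °C. In the comparisons with cytoplasm and with tho5ab below, the kind of library thus goes partly with temperature for overlapping genes.

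Heat changed a large share of the nuclear RNA population. Of 17981 tested genes, 8212 were called (45.7%), of which 3940 were higher (21.9%) and 4272 lower (23.8%) at 37 °C. Changes of at least 1 on the log2 scale were found in 2048 genes that rose (11.4%) and 2996 that fell (16.7%). Of larger changes, 172 genes rose by at least 3 against 231 that fell, and 47 rose by at least 5 against 23 that fell. The 2 groups of libraries did not overlap for 8644 genes (48.1%). The median log2 fold change of all tested genes was -0.06, against which the groups of genes below are read. Counts of called genes in a group are read against the 21.9% higher and 23.8% lower. A fit of the 12 libraries alone called 13458 of 19512 genes, 6915 higher and 6543 lower, and these held 8184 of the 8212 genes called with all 48. In bulk samples fewer cells of a type and less RNA per cell cannot be told apart, and the counts give shares of the RNA in a library, not amounts per nucleus.

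**Figure D1:**
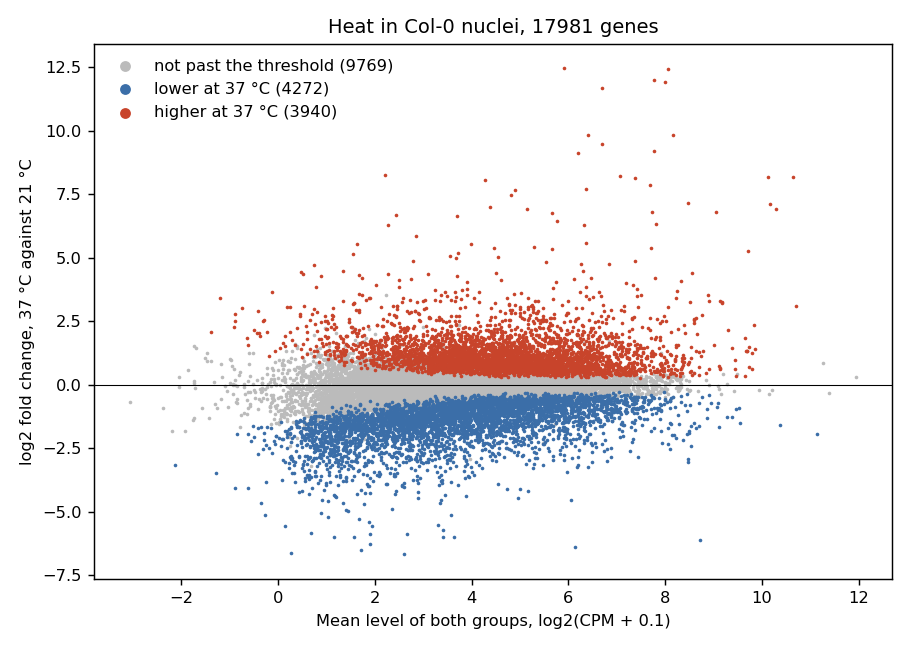
Log2 fold change of each tested gene at 37 °C against 21 °C in Col-0 nuclei (vertical axis) by its mean level in both groups as log2(CPM + 0.1) (horizontal axis), with 1 point per gene. The 3940 genes called higher reach above 12 and the 4272 called lower reach below -6, and genes of low level need a larger change to pass the threshold.

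Chaperone genes took over part of the nuclear RNA. The 54 listed chaperone genes together held 0.33% to 0.40% of the counts of a library at 21 °C and 2.99% to 5.41% at 37 °C. HSP70 alone went from 0.0024% to 0.0034% up to 0.23% to 0.52%. The 100 most abundant genes held 10.8% to 12.6% of counts at 21 °C and 12.9% to 15.37% at 37 °C.

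Small heat shock proteins, which bind unfolding proteins and keep them from clumping, showed the steepest rises. Of 13 tested genes for cytosolic members, 12 rose and 1 fell, with a median log2 fold change of 8.13 against -0.06 over all tested genes. All 5 genes for members of the plastid, mitochondrion and ER rose, with a median of 12.01. The gene of HSP21, which protects photosynthetic membranes in the plastid, had 0, 0 and 0.0368 CPM at 21 °C and 79.9, 119 and 169.7 CPM at 37 °C. Its 6 libraries at 21 °C held 1 count together against 12811 at 37 °C, a ratio of 14220 with a 95% exact counting interval of 2551 to 561600. For HSP22.0, the ER member, the levels were 0, 0.0369 and 0.226 CPM at 21 °C and 423, 523 and 712 CPM at 37 °C. The gene was close to absent at 21 °C and high in every heated library. Mitochondrial HSP23.6 had 0, 0.0777 and 0.181 CPM at 21 °C and 303, 427 and 601 CPM at 37 °C, and cytosolic HSP18.2 had 0.481, 0.553 and 1.29 CPM at 21 °C and 411, 593 and 699.5 CPM at 37 °C. The log2 fold changes were 12.46 ± 0.4 (adjusted p = 6.02e-31) for HSP21, 12.43 ± 0.35 for HSP22.0, 12.01 ± 0.41 for HSP23.6 and 9.83 ± 0.33 for HSP18.2. The fitted size of genes so near 0 moved with single replicate numbers: without replicate 1 it was 13.08 for HSP22.0 and 10.11 for HSP17.6II (9.47 with it), and without replicate 2 it was 13.16 for HSP21. Smaller rises were seen in the members HSP15.4, at 3.19 ± 0.27, and HSP18.5, at 3.29 ± 0.25, whose RNAs were already present at 21 °C. HSP21.7 alone fell, from 7.29, 9.74 and 12.9 CPM to 2.97, 4.37 and 4.94 CPM (-1.23 ± 0.32, adjusted p = 0.00158). HSP14.2 was not tested, with at most 0.740 CPM in any library.

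The large ATP-driven chaperones rose almost without exception. All 16 tested HSP70 genes and 17 of 18 genes for HSP90, HSP100 and HSP60 chaperones rose, with medians of 2.35 and 2.64. HSP90.1, the cytosolic HSP90 induced by heat, had 8.096, 10.7 and 14.1 CPM at 21 °C and 2119, 3168 and 4228 CPM at 37 °C (8.18 ± 0.21, adjusted p = 1.75e-35). It became the gene with the highest level per kb of exon among the named chaperones, with RPKM of 5.19 at 21 °C and 1509 at 37 °C. HSP101, the disaggregase needed for acquired thermotolerance, had 14.5, 19.95 and 27.7 CPM at 21 °C and 1720.1, 2368 and 3789.7 CPM at 37 °C (6.93 ± 0.23). HSP70 (AT3G12580) had 13.8, 15.9 and 19.7 CPM at 21 °C and 1473, 2289 and 3240.0 CPM at 37 °C (7.11 ± 0.18), and Hsp70b (AT1G16030) had 4.62, 4.92 and 5.17 CPM at 21 °C and 472, 665 and 1131 CPM at 37 °C (7.16 ± 0.31). In each of these genes all 6 heated libraries lay far above all 6 controls. All of them are among the 15 strongest rises, for which no overlap of groups was a condition. Over all tested genes, 48.1% had no overlap. The cytosolic HSC70-1, which is abundant without stress, changed less, from 296, 354 and 434 CPM to 702, 998 and 1308 CPM (1.45 ± 0.12). Chaperones of the organelles rose as well: 2.51 for plastid HSP90.5, 3.68 for mitochondrial HSP90.6, 4.39 for plastid CLPB3, 4.2 for mitochondrial CLPB4, 3.77 for mitochondrial MTHSC70-2 and 4.09 for the plastid chaperonin CPN60BETA2. Cytosolic HSP90.2 and HSP90.3 rose by 3.54 and 1.27, while for HSP90.4 the log2 fold change was -0.09 ± 0.16 (adjusted p = 0.657).

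Partners of the chaperones and genes of thermotolerance split by member. Of 23 tested genes, 18 rose and 1 fell, with a median of 1.82. ROF2 (AT5G48570), a prolyl isomerase that binds HSP90, had 5.15, 7.45 and 11.5 CPM at 21 °C and 1724, 2212 and 2937 CPM at 37 °C (8.18 ± 0.25, adjusted p = 4.04e-32). Hop3, which links HSP70 to HSP90, had 5.56, 9.798 and 12.4 CPM at 21 °C and 912, 1057 and 1209 CPM at 37 °C (6.82 ± 0.31), against 1.95 for HOP2 and 1.08 for HOP1. BAG6, a calmodulin-binding co-chaperone, had 32.9, 43.9 and 49.8 CPM at 21 °C and 1147, 1617 and 2225 CPM at 37 °C (5.24 ± 0.25). In all 3 of these co-chaperone genes the groups were far apart, beside 48.1% of all tested genes without overlap. HSA32, needed to keep acquired thermotolerance, rose from 0.554, 1.03 and 1.91 CPM to 91.96, 111 and 122 CPM (6.46 ± 0.26). MBF1C, a transcriptional coactivator of the heat response, rose by 4.15 ± 0.24, and FES1A, which stabilises cytosolic HSP70, by 4.47 ± 0.24. The HSP90 co-chaperone genes P23-1 (-0.05 ± 0.17) and P23-2 (-0.54 ± 0.34) did not pass the test, and BAG7, an ER co-chaperone, fell by 0.61 (adjusted p = 0.00427). Among all genes with a symbol, HSP70T-2, a truncated HSP70, also stood among the 15 strongest rises, from 1.39, 1.98 and 3.14 CPM to 117, 151 and 225 CPM (6.27 ± 0.26).

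**Figure D2:**
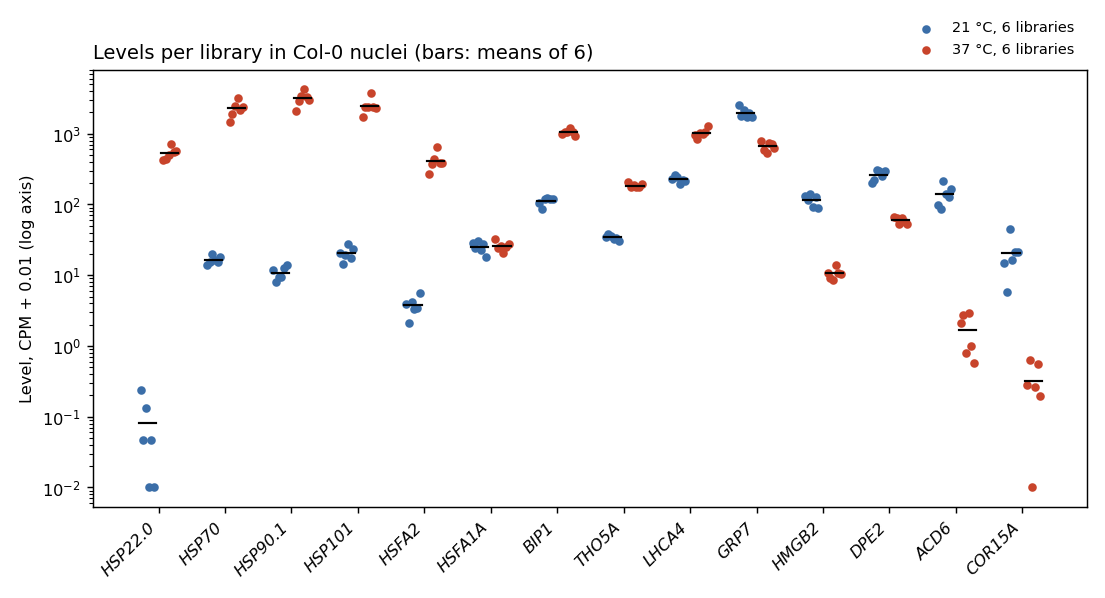
Level of 14 genes in each of the 6 libraries of Col-0 nuclei at 21 °C and at 37 °C, as CPM + 0.01 on a log axis, with bars at the group means. HSP22.0, HSP70, HSP90.1, HSP101, HSFA2, BIP1, THO5A and LHCA4 are higher in all 6 heated libraries, HSFA1A overlaps, and GRP7, HMGB2, DPE2, ACD6 and COR15A are lower in all 6.

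Heat shock factors did not move as a group. Of 19 tested genes, 7 rose and 1 fell, with a median of 0.25. With the 12 libraries alone, 10 of 18 rose and 3 fell. Without the libraries with high opposite-strand counts, 9 of 19 rose and 2 fell. HSFA2, whose promoter is shown above, had 2.098, 3.71 and 5.68 CPM at 21 °C and 269.6, 386 and 657 CPM at 37 °C (6.79 ± 0.32, adjusted p = 2.28e-24). HSFA7B had 0, 0.129 and 0.226 CPM at 21 °C and 16.3, 36.1 and 67.7 CPM at 37 °C (8.05 ± 0.51), and HSFA3, a target of DREB2A, had 8.31, 9.49 and 10.99 CPM at 21 °C and 275, 319 and 701 CPM at 37 °C (5.39 ± 0.32). All 3 of these induced factors were lowly expressed at 21 °C. HSFA7A rose by 3.14 ± 0.28. The class B factors, which can act as repressors, rose less: 2.9 ± 0.22 for HSFB1, 2.17 ± 0.24 for HSFB2A and 2.22 ± 0.28 for HSFB2B. None of the HSFA1 genes passed the test: HSFA1A had 17.9, 25.6 and 30.7 CPM at 21 °C and 20.7, 25.7 and 32.7 CPM at 37 °C (0.04 ± 0.26), and the log2 fold changes of HSFA1B, HSFA1D and HSFA1E were -0.32 ± 0.24, 0.5 ± 0.26 and 0.88 ± 0.39. HSFC1 fell by 0.95 (adjusted p = 0.000311).

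Of 10 tested regulators of the DREB, CBF and ZAT families, 5 rose and 1 fell. DREB2A, DREB2B and DREB2C, which act in drought and heat, rose by 2.21 ± 0.2, 1.72 ± 0.25 and 2.76 ± 0.22. DREB2A had 47.98, 59.1 and 64.3 CPM at 21 °C and 196, 276 and 299 CPM at 37 °C. CBF3, a regulator of cold acclimation, fell from 3.31, 4.92 and 13.1 CPM to 0.04497, 0.477 and 1.002 CPM (-3.69 ± 0.57), and for its neighbours CBF1 and CBF2 the values were -1.1 ± 0.58 and -0.21 ± 0.6, not past the threshold. ZAT12 and ZAT10, zinc finger factors of stress, rose by 1.39 ± 0.27 and 0.97 ± 0.25.

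The unfolded protein response, by which the ER makes more folding capacity, was raised nearly throughout. Of 27 tested genes, 25 rose and 1 fell, with a median of 2.47. BIP1, an HSP70 of the ER lumen, had 86, 119 and 123 CPM at 21 °C and 929, 1047 and 1192 CPM at 37 °C (3.21 ± 0.23, adjusted p = 2.96e-17). Its near copy BIP2 rose by 3.3 ± 0.22, and the divergent BIP3 by 1.83 ± 0.34. The ER HSP90 SHD had 94.5, 115 and 128 CPM at 21 °C and 705, 732 and 867 CPM at 37 °C (2.73 ± 0.17). Lectin chaperones rose together with them, CNX1 by 2.64 ± 0.19, CRT1A by 2.57 ± 0.2 and CRT1B by 2.44 ± 0.15, while CRT3 fell by 0.97 (adjusted p = 0.00252). ERDJ3A and TIN1 rose most, by 4.82 ± 0.3 and 5.37 ± 0.33. The transducers of the response rose less: bZIP28 by 1.83 ± 0.19, bZIP60 by 1.54 ± 0.19 and bZIP17 by 0.65 ± 0.18. Of the RNA-splicing sensors, IRE1A rose by 0.72 ± 0.22 and IRE1B had -0.5 ± 0.22 (adjusted p = 0.0581).

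Genes of light harvesting and the photosystems are expressed in green cells and supply the most abundant leaf mRNAs. Of 47 tested, 22 rose in nuclei and 2 fell, against 21.9% and 23.8% of all tested genes, with a median of 0.31. LHCA4, an antenna protein of photosystem I, had 195, 229 and 265 CPM at 21 °C and 836, 1013 and 1268 CPM at 37 °C (2.16 ± 0.15, adjusted p = 2.77e-17). LHCB1.1 had 59.8, 67.8 and 79.9 CPM at 21 °C and 178, 201 and 233 CPM at 37 °C (1.57 ± 0.2), and LHCB1.4 rose by 1.4 ± 0.21. The groups of libraries did not overlap in these genes, which held for 48.1% of all tested genes. The photosystem II gene PSBO1 had 287, 322 and 366 CPM at 21 °C and 338, 372 and 410.4 CPM at 37 °C (0.19 ± 0.13, adjusted p = 0.255). LHCA6 fell by 0.68 and LHCB4.3 by 0.91, the latter not called without the libraries with high opposite-strand counts. The cytoplasm of the same kind of plants gave another picture: the median over the 47 genes was -0.60 there, and 30 genes changed more upward in nuclei than in cytoplasm by the test of the interaction of heat and fraction, against 1 the other way. Over all tested genes this interaction was called for 16.0%, 7.37% higher and 8.64% lower in nuclei. For LHCA4 the log2 fold change was 2.16 in nuclei and -0.98 in cytoplasm, with an interaction of 3.14 ± 0.21 (adjusted p = 2.52e-16). LHCB1.2 had 1.17 and -1.45 (interaction 2.61 ± 0.27), and LHCB1.3 had -0.37 and -2.09 (interaction 1.71 ± 0.27). LHCB2.3 had -0.06 and -3.4 (interaction 3.34 ± 0.32, adjusted p = 2.63e-11).

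Carbon fixation and chlorophyll synthesis differed from each other in nuclei. Of 21 tested Calvin cycle genes, 1 rose and 14 fell, with a median of -0.67. CP12-2, a regulator of the cycle, had 60.02, 71.1 and 90.32 CPM at 21 °C and 13.5, 17.7 and 21.5 CPM at 37 °C (-2.06 ± 0.21, adjusted p = 6.95e-12). The small subunits of Rubisco RBCS1B and RBCS2B fell with log2 fold changes of -1.39 ± 0.15 and -1.61 ± 0.18, whereas RBCS1A had -0.27 ± 0.19 (adjusted p = 0.26). Rubisco activase RCA, at 521, 621 and 703 CPM at 21 °C and 539, 625 and 703 CPM at 37 °C, had 0.01 ± 0.15. The riser was the triose phosphate isomerase gene TPI, at 0.88 ± 0.11. Of 13 genes of chlorophyll synthesis, 8 rose and 1 fell, with a median of 0.53 in nuclei and -0.64 in cytoplasm, and 8 of them changed more upward in nuclei by the interaction. CRD1, an oxidative cyclase, had 98.2, 107 and 122 CPM at 21 °C and 247, 269 and 284 CPM at 37 °C (1.29 ± 0.13), and PORB, which reduces protochlorophyllide in the light, had 0.84 in nuclei and -0.64 in cytoplasm (interaction 1.48 ± 0.22, adjusted p = 1.24e-06).

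**Figure D3:**
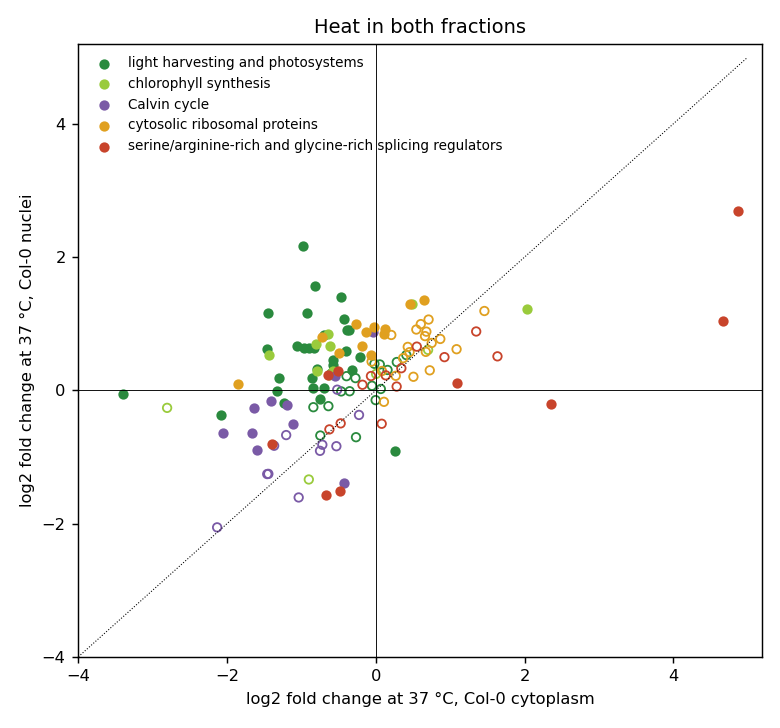
Log2 fold change at 37 °C in Col-0 nuclei (vertical axis) and in Col-0 cytoplasm (horizontal axis) for the genes of 5 lists, with 1 point per gene, filled where the interaction of heat and fraction passed the threshold, and a dotted line where both are equal. Most filled points of light harvesting lie above the line, with LHCA4 at 2.16 and -0.98, and the splicing regulators SR30 and SR45A lie below it.

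Genes for making ribosomes rose modestly and together. Of 32 tested cytosolic ribosomal protein genes, 26 rose and 0 fell, with a median of 0.74. RPL23AA had 14.1, 16.7 and 17.96 CPM at 21 °C and 34.1, 39 and 55.7 CPM at 37 °C (1.35 ± 0.15, adjusted p = 6.06e-11), and RPS5B rose by 1.06 ± 0.17. RPL5A and RPS6A, at 0.22 ± 0.16 and 0.2 ± 0.13, did not pass the test. Of 14 genes of ribosome biogenesis, 11 rose and 0 fell, with a median of 0.84. NOP56, a core protein of the small nucleolar particles that guide rRNA methylation, had 49.4, 65.2 and 75.3 CPM at 21 °C and 152, 192 and 204 CPM at 37 °C (1.54 ± 0.2). PES, which acts in the maturation of the large subunit, had 35.1, 40.1 and 42.8 CPM at 21 °C and 98.97, 111 and 125 CPM at 37 °C (1.47 ± 0.16).

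Many genes of protein breakdown had more RNA in heated nuclei. Of 32 genes of the proteasome and ubiquitin, 23 rose and 0 fell, with a median of 0.44, though 14 of them rose when DESeq2's size factors replaced TMM scaling. UBQ14, a polyubiquitin gene, had 23.8, 30.9 and 34.2 CPM at 21 °C and 104, 126 and 157 CPM at 37 °C (2.11 ± 0.15, adjusted p = 7.2e-17). The lid and base subunits RPN6 and RPT3 rose by 1.48 ± 0.15 and 1.39 ± 0.13. Of 15 autophagy genes, 7 rose and 0 fell. NBR1, a receptor that brings aggregated proteins to the autophagosome, had 44.3, 50.3 and 57.2 CPM at 21 °C and 147, 193 and 226 CPM at 37 °C (1.92 ± 0.15). Its log2 fold change in cytoplasm was 0.33, with an interaction of 1.58 ± 0.21 (adjusted p = 1.27e-07). ATG8A, ATG8E and ATG8H, membrane anchors of the autophagosome, rose by 1.93 ± 0.24, 1.58 ± 0.26 and 1.91 ± 0.25.

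Genes that act on RNA itself changed one by one. Of 21 splicing regulators, 6 rose and 6 fell, near the shares of all tested genes (21.9% and 23.8%). In the fit of the 12 libraries alone 14 rose. SR45A had 62.1, 67.7 and 71.9 CPM at 21 °C and 403, 422 and 497 CPM at 37 °C (2.69 ± 0.13, adjusted p = 9.74e-24), and SR30 had 167, 215 and 261 CPM at 21 °C and 410.2, 429 and 499.9 CPM at 37 °C (1.03 ± 0.14). Both proteins act in the choice of splice sites. In the cytoplasm their log2 fold changes were 4.87 and 4.67, and the interactions were -2.18 ± 0.19 and -3.63 ± 0.22 (adjusted p = 1.53e-12 and 3.85e-18). SCL33 had -0.2 ± 0.14 in nuclei, not past the threshold, and 2.35 in cytoplasm (interaction -2.55 ± 0.2). Counts per gene do not show which splice forms lay behind these differences. The glycine-rich RNA-binding protein GRP7, a clock-regulated gene, had 1708, 1876 and 2583 CPM at 21 °C and 526, 678 and 783 CPM at 37 °C (-1.58 ± 0.15, adjusted p = 2.48e-12), and its relative GRP8 (AT4G39260) had 423, 565 and 738 CPM at 21 °C and 132, 192 and 262 CPM at 37 °C (-1.52 ± 0.16). In both genes all heated libraries lay below all controls, where 48.1% of all tested genes had no overlap of groups.

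Of 28 genes of the THO complex and mRNA export, 9 rose and 3 fell, against 21.9% and 23.8% of all tested genes. THO5A had 30.8, 34.4 and 37.6 CPM at 21 °C and 175, 183 and 205 CPM at 37 °C (2.43 ± 0.37, adjusted p = 2.85e-07), a clear separation of the groups. The other THO5 gene, THO5B, had 5.17, 6.303 and 6.79 CPM at 21 °C and 3.63, 4.79 and 5.94 CPM at 37 °C (-0.35 ± 0.58, adjusted p = 0.65). The THO subunit genes THO7A and THO7B fell with log2 fold changes of -2.4 ± 0.64 and -1.22 ± 0.3. RAE1, an export factor of the nuclear pore, had 12.6, 14.7 and 18.4 CPM at 21 °C and 130.1, 154 and 182 CPM at 37 °C (3.35 ± 0.17, adjusted p = 4.03e-23), the largest rise of the list. NUP160, a pore subunit, and LOS4, an RNA helicase at the pore, rose by 1.38 ± 0.22 and 1.33 ± 0.16. The export adaptor ALY3 fell by 0.98 in nuclei while its change in cytoplasm was 0.96 (interaction -1.95 ± 0.2, adjusted p = 3.65e-10). With the 12 libraries alone, 14 genes of this list rose and 7 fell, and 5 fell with DESeq2's size factors.

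Of 14 genes of RNA decay, 4 rose and 0 fell, against 21.9% and 23.8% of all tested genes, and 8 rose with the 12 libraries alone. The 4 include the exosome genes RRP4 (2.08 ± 0.29) and RRP6L2 (1.42 ± 0.17) and the helicase MTR4 (1.15 ± 0.15), which feeds RNA to the nuclear exosome. The fourth was the nuclear exonuclease XRN3, at 0.46 ± 0.15. Of 16 genes of small RNA pathways, 3 rose, near the share of all tested genes (21.9%), and 1 fell. With the 12 libraries alone 5 rose. SERRATE (SE), which acts in microRNA processing, had 82.5, 90.7 and 101 CPM at 21 °C and 273, 334 and 348 CPM at 37 °C (1.84 ± 0.13, adjusted p = 9.6e-17). AGO2 and AGO1, which carry small RNAs, rose by 1.41 ± 0.22 and 0.53 ± 0.14.

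Chromatin genes moved in opposite directions. Of 36 tested histone genes, 3 rose (5 with the 12 libraries alone) and 23 fell, with a median of -1.14. HIS1-3, a linker histone known from drought, had 30.9, 42.8 and 54.1 CPM at 21 °C and 1.69, 2.49 and 4.54 CPM at 37 °C (-3.9 ± 0.33, adjusted p = 1.63e-14). HTA6, an H2A gene, had 3.14, 5.34 and 8.55 CPM at 21 °C and 0.3598, 0.531 and 0.751 CPM at 37 °C (-3.41 ± 0.35). HTA9, which codes for the variant H2A.Z, rose instead, from 4.62, 7.49 and 8.78 CPM to 11.03, 15.98 and 25.98 CPM (1.22 ± 0.2), and the other risers were the H4 gene AT5G59690 at 0.86 ± 0.21 and HTA13 at 0.69 ± 0.23. Of 15 genes of transcript elongation and HMGB chromatin proteins, 8 rose and 4 fell, and 5 rose with DESeq2's size factors. The fallers were all HMGB genes: HMGB2 had 87.9, 121 and 139.9 CPM at 21 °C and 8.53, 10.5 and 14.03 CPM at 37 °C (-3.44 ± 0.17), HMGB6 had 9.75, 12.8 and 19.8 CPM at 21 °C and 0.114, 0.972 and 1.42 CPM at 37 °C (-3.87 ± 0.35), HMGB3 fell with a log2 fold change of -1.84 ± 0.14 and HMGB4 with -0.6 ± 0.2, the last not called without replicate 3. HMGB1 rose by 0.78 ± 0.21. NRPB1, the largest subunit of RNA polymerase II, had 233, 251 and 269 CPM at 21 °C and 426, 457 and 517 CPM at 37 °C (0.9 ± 0.13).

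Genes of the cell cycle fell. Of 30 tested, 2 rose and 19 fell, with a median of -1.41, and the 33 listed genes summed to 222 to 269 CPM at 21 °C and 118 to 147 CPM at 37 °C. The mitotic cyclin CYCB1;2 had 4.99, 5.75 and 7.74 CPM at 21 °C and 0.341, 0.492 and 0.7404 CPM at 37 °C (-3.54 ± 0.46, adjusted p = 8.15e-09). CYCA1;1 had 2.96, 4.19 and 4.78 CPM at 21 °C and 0, 0.161 and 0.501 CPM at 37 °C (-4.33 ± 0.54), and HIK, a kinesin of cytokinesis, had 7.68, 9.79 and 11.5 CPM at 21 °C and 0.494, 1.31 and 1.75 CPM at 37 °C (-3.04 ± 0.39). The heated libraries lay near 0 for the cyclins. PLE, a microtubule bundling protein of cytokinesis, rose by 1.75 ± 0.27, and the cyclin gene CYCD3;3 by 1.6 ± 0.51.

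**Figure D4:**
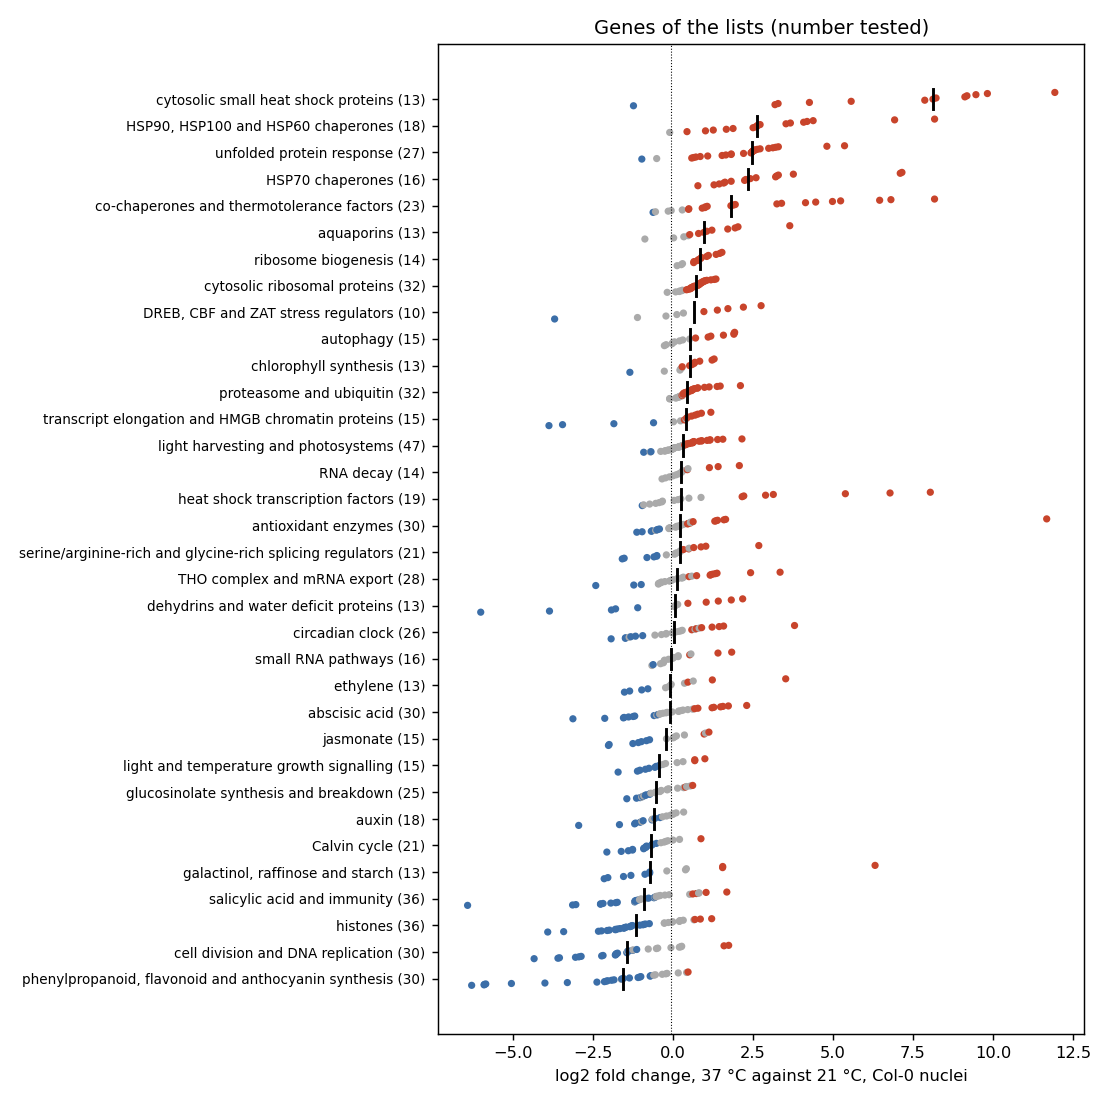
Log2 fold change at 37 °C against 21 °C in Col-0 nuclei for the genes of each list with at least 10 tested members, with 1 point per gene, coloured red where called higher, blue where called lower and grey where not past the threshold, and a bar at the list's median. The median runs from 8.13 for cytosolic small heat shock proteins to -1.57 for phenylpropanoid, flavonoid and anthocyanin synthesis, and the dotted line marks the median of all tested genes at -0.06.

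Of 26 tested clock genes, 7 rose and 6 fell, shares near those of all tested genes, and 13 rose with the 12 libraries alone. The labels used here do not give the hour of harvest of either group. CCA1, a morning repressor of the clock, had 4.39, 5.88 and 13.04 CPM at 21 °C and 68.3, 96.7 and 115 CPM at 37 °C (3.8 ± 0.34, adjusted p = 2.47e-13). PRR9 and LNK1, further genes of the morning, rose by 1.45 ± 0.25 and 1.59 ± 0.18. The evening gene ELF4 had 13.8, 17.43 and 19.2 CPM at 21 °C and 2.92, 4.11 and 7.77 CPM at 37 °C (-1.92 ± 0.27), and CDF1, a repressor of flowering, fell with a log2 fold change of -1.48 ± 0.33. PRR7 and TOC1 did not pass the test, at -0.02 ± 0.16 and -0.2 ± 0.17. Of 15 genes of light and temperature signalling in growth, 3 rose (5 with the 12 libraries alone) and 8 fell. Over all tested genes the shares were 21.9% and 23.8%. PIF4, a factor of growth in warmth, had 181, 236 and 283 CPM at 21 °C and 108, 133 and 151 CPM at 37 °C (-0.85 ± 0.19, adjusted p = 0.000223). PIF3 and COP1 fell with log2 fold changes of -1.02 ± 0.23 and -1.1 ± 0.22, and the photoreceptor gene PHYA rose by 1.0 ± 0.15.

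Synthesis of flavonoids and anthocyanins, pigments that are known to decline in warm plants, had the lowest median of the lists with at least 10 tested genes. Of 30 tested genes, 1 rose and 21 fell, with a median of -1.57. DFR, the entry to the anthocyanin branch, had 2.76, 9.48 and 32.9 CPM at 21 °C and 0, 0.175 and 0.315 CPM at 37 °C (-5.88 ± 0.65, adjusted p = 9.14e-11). LDOX, the next enzyme, had 1.45, 5.801 and 20.5 CPM at 21 °C and 0, 0.0756 and 0.2304 CPM at 37 °C (-5.89 ± 0.66), and GSTF12, needed to bring anthocyanins to the vacuole, had 1.67, 5.49 and 15.1 CPM at 21 °C and 0, 0.0786 and 0.154 CPM at 37 °C (-6.28 ± 0.76). Levels at 21 °C varied widely between libraries in these genes, and all heated libraries were near 0. Without replicate 3 the values were -5.13 for DFR and -5.19 for LDOX. Chalcone synthase CHS, at the head of the branch, had 15.2, 30.7 and 41.2 CPM at 21 °C and 19.7, 27.9 and 31.3 CPM at 37 °C (-0.18 ± 0.24, adjusted p = 0.58). The general phenylpropanoid gene PAL1 fell with a log2 fold change of -2.13 ± 0.2, and C4H was the riser, at 0.48 ± 0.2 with an adjusted p of 0.041, not called when any of replicates 1 to 6 was left out. Of 25 genes of glucosinolate synthesis and breakdown, 2 rose and 8 fell, against 21.9% and 23.8% of all tested genes. CYP83B1, an enzyme of indole glucosinolates, had 55.7, 69.7 and 111 CPM at 21 °C and 30.6, 40.5 and 48.7 CPM at 37 °C (-0.94 ± 0.21), while the myrosinase TGG1 had 339, 357 and 426 CPM at 21 °C and 243, 329.6 and 421 CPM at 37 °C (-0.17 ± 0.21).

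Immune genes fell more often than they rose. Of 36 tested genes of salicylic acid and immunity, 4 rose and 17 fell, with a median of -0.90. ACD6, an ankyrin protein that promotes salicylic acid signalling, had 85.1, 134 and 218 CPM at 21 °C and 0.561, 1.53 and 2.94 CPM at 37 °C (-6.41 ± 0.54, adjusted p = 1.88e-14). FLS2 (AT5G46330), the receptor of bacterial flagellin, had 54.5, 68.6 and 94.98 CPM at 21 °C and 3.702, 9.15 and 9.67 CPM at 37 °C (-3.13 ± 0.32). PBS3, which acts in the synthesis of salicylic acid, had 1.62, 2.73 and 3.88 CPM at 21 °C and 0, 0.225 and 1.02 CPM at 37 °C (-3.03 ± 0.96). NPR3, a salicylic acid receptor, rose instead, from 9.87, 12.5 and 14.6 CPM to 29.3, 41.6 and 45.5 CPM (1.69 ± 0.27), and WRKY18 rose by 1.04 ± 0.25. BAK1, the partner kinase of FLS2, rose by 0.74 ± 0.17. LURP1, a gene known from the defence against an oomycete, and the receptor-like kinase genes CRK28 and IMK2 were also among the 15 strongest falls, at -4.48 ± 0.64, -3.43 ± 0.34 and -4.1 ± 0.4. By symbol, the families with the lowest medians among 109 with at least 10 tested genes were EXPA (expansins, which loosen cell walls) at -1.603, with 9 of 14 lower and 0 higher, RLP (receptor-like proteins) at -1.27, with 24 of 41 lower and 0 higher, and CRK (cysteine-rich receptor-like kinases) at -1.21, with 15 of 24 lower and 0 higher. The highest median after HSP was that of TOM at 0.97, with 7 of 12 higher and 0 lower.

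Hormone pathways showed mixed changes. Of 15 jasmonate genes, 2 rose and 7 fell, against 21.9% and 23.8% of all tested genes. LOX2, an early enzyme of synthesis in the plastid, had 222, 476 and 627 CPM at 21 °C and 89.8, 107 and 159 CPM at 37 °C (-1.99 ± 0.27, adjusted p = 1.99e-08). Of 13 ethylene genes, 3 rose (5 with the 12 libraries alone) and 4 fell, near the shares of all tested genes (21.9% and 23.8%). ACS7, an enzyme of ethylene synthesis, had 0.739, 1.52 and 2.48 CPM at 21 °C and 10.7, 13.6 and 46.1 CPM at 37 °C (3.53 ± 0.43), and the factor EIL1 fell with a log2 fold change of -1.35 ± 0.15. Of 18 auxin genes, 0 rose and 9 fell, among them the repressor gene IAA29 (-2.94 ± 0.53) and the auxin carrier PIN7 (-1.16 ± 0.16). Of 30 abscisic acid genes, 8 rose (14 with the 12 libraries alone) and 9 fell, also near the shares of all tested genes. The receptor genes PYL7 and PYL5 rose by 2.31 ± 0.25 and 1.57 ± 0.19. The factors ABI5 and ABF2 fell with log2 fold changes of -2.12 ± 0.45 and -1.54 ± 0.19. CYP707A2, an enzyme that breaks down abscisic acid, had 21.5, 25.7 and 32.8 CPM at 21 °C and 2.25, 2.99 and 3.89 CPM at 37 °C (-3.12 ± 0.3), and in cytoplasm it changed by -1.04 (interaction -2.08 ± 0.55, adjusted p = 0.00601).

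Protectants against drying and cold split within the list, with 5 of 13 higher and 5 lower, against 21.9% and 23.8% of all tested genes. The dehydrin gene COR47 had 285, 342 and 439 CPM at 21 °C and 1008, 1288 and 1478 CPM at 37 °C (1.83 ± 0.16, adjusted p = 4.28e-14), and ERD10 rose by 1.05 ± 0.18. COR15A, a protectant of plastid membranes in the cold, had 5.85, 18.7 and 44.9 CPM at 21 °C and 0, 0.2601 and 0.617 CPM at 37 °C (-6.0 ± 0.49), and its neighbour COR15B fell with a log2 fold change of -3.85 ± 0.34. In COR15A the level at 21 °C ranged widely, and all heated libraries were near 0. Of 13 genes of galactinol, raffinose and starch, 3 rose, near the share of all tested genes (21.9%), and 7 fell, against 23.8%. GolS1, which makes galactinol for the osmoprotectant raffinose and carries an element shown above, had 2.87, 4.89 and 9.24 CPM at 21 °C and 286, 430.1 and 635 CPM at 37 °C (6.32 ± 0.25), GOLS2 had 0.4 ± 0.19, not past the threshold, and GOLS3 fell with a log2 fold change of -2.03 ± 0.43. DPE2, which handles maltose from starch breakdown at night, had 201, 274 and 312 CPM at 21 °C and 52.7, 61.1 and 65.8 CPM at 37 °C (-2.14 ± 0.15). BAM1, a beta-amylase, rose by 1.56 ± 0.13, and BAM3 fell with a log2 fold change of -1.31 ± 0.19.

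Of 30 genes of antioxidant enzymes, 10 rose, against 21.9% of all tested genes, and 7 fell, near the share of all tested genes (23.8%). Without the libraries with high opposite-strand counts 2 fell, and with the 12 libraries alone 16 rose. APX2, a cytosolic ascorbate peroxidase known as a target of HSFA2, had 0, 0.0184 and 0.181 CPM at 21 °C and 192, 203 and 219.6 CPM at 37 °C (11.68 ± 0.35, adjusted p = 6.88e-28, and 12.62 without replicate 1). AOX1A, the alternative oxidase of mitochondria, had 35.4, 44.4 and 49.4 CPM at 21 °C and 115, 141 and 160.5 CPM at 37 °C (1.65 ± 0.12). The catalase gene CAT3 had 482, 561 and 957 CPM at 21 °C and 241, 329 and 375 CPM at 37 °C (-0.96 ± 0.15). The groups did not overlap in any of these 3 genes, which held for 48.1% of all tested genes. Of 13 aquaporin genes, which code for water channels, 9 rose and 0 fell, with a median of 0.97. PIP2;3 had 2.22, 2.398 and 3.26 CPM at 21 °C and 20.9, 33.5 and 50.1 CPM at 37 °C (3.66 ± 0.26), PIP2;1 had 35.7, 46.4 and 55.4 CPM at 21 °C and 154, 188 and 221 CPM at 37 °C (2.04 ± 0.2), and the vacuolar TIP1;1 rose by 1.95 ± 0.19.

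Markers of the cell types of a rosette were checked beside these changes. The summed level of 4 phloem markers ran from 87.5 to 118 CPM at 21 °C and from 48.3 to 64.7 CPM at 37 °C, with 1 gene higher and 3 lower. SUC2, the sucrose carrier of companion cells, had 44.3, 66.7 and 70.2 CPM at 21 °C and 11.6, 12.2 and 16.04 CPM at 37 °C (-2.25 ± 0.22, adjusted p = 2.36e-12), and APL, a phloem identity factor, rose by 1.2 ± 0.21. The markers of the same tissue therefore moved in both directions. The 5 guard cell markers summed to 173 to 227 CPM and 130 to 207 CPM, with 1 higher and 1 lower, and the 4 epidermis markers to 311 to 402 CPM and 276 to 360.2 CPM, with none called by edgeR (0 of 4). The 5 root markers summed to 18.8 to 29.6 CPM and 12.9 to 31.9 CPM, with WOX5 at no more than 0.327 CPM in any library. Of 4 shoot meristem markers, KNAT1 fell by 1.0, and CLV3 was at 0 in all heated libraries. Whether shares of cell types played a part in any change was not tested.

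The strongest falls with a symbol, a level of at least 3 on the log2 CPM scale and no overlap of groups were led by ACD6 and then by OEP16-1, a channel of the plastid envelope. OEP16-1 had 105, 120.2 and 173 CPM at 21 °C and 4.44, 5.02 and 7.16 CPM at 37 °C (-4.56 ± 0.19, adjusted p = 2.22e-26). ASN2, an asparagine synthetase, had 47.6, 65.5 and 102 CPM at 21 °C and 1.71, 3.85 and 4.86 CPM at 37 °C (-4.19 ± 0.27), and ABCC11, a transporter of the ABC family, had 57.6, 71.4 and 80.7 CPM at 21 °C and 2.71, 6.64 and 13.8 CPM at 37 °C (-3.28 ± 0.41). That the groups were apart in all 3 follows from how the genes were chosen. The other genes of the 15, beside HIS1-3, HMGB2, CRK28, IMK2, LURP1, FLS2 and CYP707A2, were FUC1, a fucosidase (-3.64), THAS1, the first enzyme of thalianol synthesis (-3.17), WRI4, a regulator of wax synthesis (-3.26), and the carboxypeptidase gene scpl35 (-3.26). No gene met a strict measure of being off in one group and on in the other: 968 genes had 0 counts in all 6 libraries at 21 °C and 1965 in all 6 at 37 °C, but none of them (0) had at least 10 counts in every library of the other group.

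The heat response of nuclei also differed from that of the cytoplasm in single genes beyond those above. Among the genes raised more in nuclei, AGP3, an arabinogalactan protein, had 1.96 in nuclei and -2.46 in cytoplasm (interaction 4.42 ± 0.49, adjusted p = 1.58e-09). HDT4, a plant-specific histone deacetylase, had 1.62 and -1.35 (interaction 2.96 ± 0.5). Of the 13 cytosolic small heat shock genes, 10 changed less upward in nuclei than in cytoplasm by the interaction, and 0 more upward. The larger chaperones did not share this. Of 16 HSP70 genes, 7 changed more upward in nuclei and 4 less. Of 18 genes for HSP90, HSP100 and HSP60 chaperones, 6 changed more upward and 3 less. Among those with less, Hsp70b had 7.16 in nuclei and 11.45 in cytoplasm (interaction -4.29 ± 0.43, adjusted p = 7.7e-11), and HSP101 had 6.93 and 9.4 (interaction -2.46 ± 0.28). For HSP17.6II and HSA32 the cytoplasm at 21 °C held 0 counts in all 6 libraries, so the rise there was at least 13310-fold and 914-fold against a floor of 3 counts over the group, and the size of their interaction depends on the prior count. The cytoplasmic libraries of Col-0 held 1140170 to 2174279 counts, fewer than any of the nuclear ones, and a difference between fractions is one of shares of the RNA of each.

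The nuclear response of tho5ab, set against that of Col-0 by the interaction of heat and genotype, differed in few genes. Of the tested genes 663 were called (3.69%), 451 of them with a more upward change in the mutant (2.51%) and 212 with a more downward one (1.18%). With DESeq2's size factors the split was 400 to 316, and the number called was 386 without the libraries with high opposite-strand counts, 386 without replicate 1, 419 without replicate 5, 410 without replicate 6 and 2329 by DESeq2's Wald test. HSFA2 had 6.79 in Col-0 and 9.42 in tho5ab (interaction 2.63 ± 0.37, adjusted p = 3.21e-06), and MBF1C had 4.15 and 6.43 (interaction 2.28 ± 0.3). GRP7 fell by 1.58 in Col-0, and its value in the mutant was 0.85 (interaction 2.43 ± 0.22, adjusted p = 3.29e-11). Its level was already lower in the mutant at 21 °C, at 679 ± 165 CPM against 1986 ± 336 CPM in Col-0. At 37 °C it was 1227 ± 169 CPM in the mutant and 666 ± 100 CPM in Col-0 (mean ± SD, n = 6). Col-0 thus had the less upward change in all 3 genes. THO5A, one of the genes mutated in tho5ab, had 2.43 in Col-0 against -1.31 in tho5ab (interaction -3.74 ± 0.51). Levels in the mutant started from another point: at 21 °C nuclei held 34.3 ± 2.55 CPM of THO5A in Col-0 and 98.5 ± 18.3 CPM in the mutant, and at 37 °C 185 ± 11.9 CPM and 39.8 ± 39.6 CPM (mean ± SD, n = 6). The receptor-like protein gene RLP19 fell in Col-0 from 79, 96.8 and 149.5 CPM to 11.97, 13.6 and 21.2 CPM (-2.78 ± 0.32) and its change was more downward in the mutant (interaction -2.3 ± 0.44).

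Promoters differed between the classes of change in the same window of 300 bases around the annotated start, read from TAIR10.1 on both strands. A match is a description of letters, not of a bound site. The heat shock element of 3 units was present in 0.573% of the promoters of all tested genes. It was present in 9 of the 47 genes that rose by at least 5 (19.1%), in 7 of the 125 that rose by 3 to 5 (5.6%), in 24 of the 1876 that rose by 1 to 3 (1.28%) and in 0.409% of those not called. It was also in 8 of the 2765 genes that fell by 1 to 3 (0.289%). For falls of at least 3 it was in 2 of 231 (0.866%). Of the 103 tested genes that held the element, 40 were not called. The gene lists hold many heat shock genes and were chosen with earlier results of these data known. In them the element was held by 17 genes, all of them risers but PRR7: HSP17.4, AT1G53540, HSC70-3, HSP70, CPHSC70-2, Hop3, BOB1, HSFA2, HSFA7A, HSFA7B, DREB2A, BI1, GolS1, NAC078, SR45A and AGO1. The majority of strongly raised genes therefore had no such run in this window. The element of 2 units GAANNTTC, which the longer one contains, was in 11.5% of tested promoters and in 31.9% of those of the genes that rose by at least 5.

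Other letters were spread differently over the classes. Site II, TGGGCC, known from genes of ribosomes and growth, was in 19.4% of tested promoters, in 16 of the 47 that rose by at least 5 (34.0%), in 30.6% of those that rose by under 1, in 28.8% of those that rose by 1 to 3 and in 10.6% of those that fell by 1 to 3. It was in 21 of the 32 promoters of ribosomal proteins (65.6%) and in 15 of the 32 of the proteasome and ubiquitin (46.9%). The telo box, AAACCCTA, was in 5.58% of tested promoters, in 1 of the 47 that rose by at least 5 (2.13%), in 9.81% of those that rose by 1 to 3 and in 13 of the 32 of ribosomal proteins (40.6%). The G-box, CACGTG, was in 8.99% of tested promoters, in 9 of the 47 that rose by at least 5 (19.1%), in 13 of the 27 of the unfolded protein response (48.1%) and in 15 of the 47 of light harvesting (31.9%). The letters CCACGTCA, from promoters of ER stress, were in 1.98% of tested promoters and in 6 of the 27 of the unfolded protein response (22.2%). The W-box, TTGACC, bound by WRKY factors, was in 14.3% of tested promoters and in 13.4% of those that fell by at least 3.

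**Figure D5:**
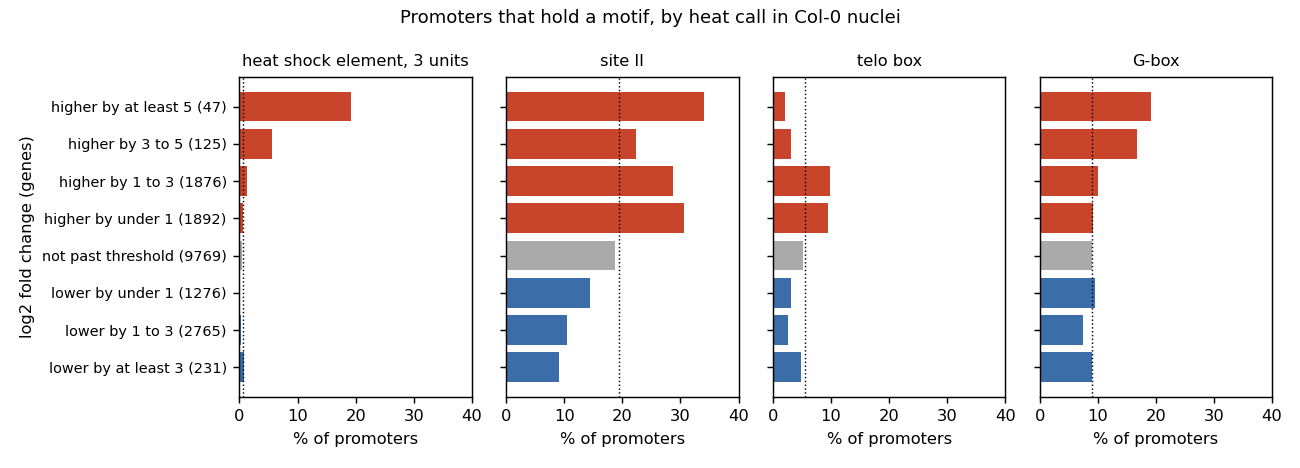
Share of promoters (horizontal axes, % of genes of a class) that hold each of 4 motifs in the 300 bases around the start, by class of log2 fold change in Col-0 nuclei (vertical axis, with the number of genes), with a dotted line at the share of all tested genes. The heat shock element reaches 19.1% in genes that rose by at least 5, site II is above its dotted line in all classes that rose and below it in those that fell, and the telo box is above it only in genes that rose by under 1 (9.46%) and by 1 to 3 (9.81%).

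Direction also went with the length of the transcript. When tested genes were cut into 4 equal classes by exon length, in the shortest class (42 to 1341 bp) 26.0% of genes rose and 16.0% fell, and in the longest (2460 to 16614 bp) 19.7% rose and 29.0% fell. The order was the same for genes that neither overlap another gene nor have a near copy, with 27.2% and 18.1% in the shortest class and 20.18% and 29.4% in the longest. Over all tested genes the median log2 fold change went from 0.12 in the shortest class to -0.17 in the longest. The median level went from 6.66 to 35.9 CPM. The part of RNA fragmentation, of size selection or of the level in this was not tested. By number of introns the share of genes that rose lay between 19.7% and 23.2% in all 5 classes, while the share that fell went from 19.1% of genes with 0 introns to 28.5% of those with over 10. The median log2 fold change changed little over these classes, at -0.04, -0.08, -0.03, -0.07 and -0.09. The median level went from 7.18 CPM with 0 introns to 40.8 CPM with over 10, and its part in the share called was not tested. For 6 genes that rose by at least 5, the next gene on the same strand began within 500 bp and was tested, and 2 of these 6 neighbours rose, against 24.6% of the neighbours of all tested genes at that distance.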

How the data were processed

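RNA of Col-0 nuclei was sequenced from 12 libraries (6 per temperature), and of the other 6 groups from 36. Per the submitters' processing notes, the authors used STAR 2.7.8a, Picard, UMI-tools and featureCounts with TAIR10; the notes used here give no role or order, and no strand setting. The deposited values are counts of reads per gene, whole numbers with no normalization, in 1 table for all 48 libraries. Libraries were tied to groups by their column names and titles.

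From these counts, genes were filtered by edgeR's filterByExpr, scaled by TMM and tested with edgeR 4.0.16 (R 4.3.3) by its quasi-likelihood test, in a fit of all 48 libraries with 1 mean for each of 8 groups. Adjusted p-values are Benjamini-Hochberg over all 17981 tested genes with a threshold of 0.05. Standard errors are the absolute log2 fold change over the square root of F, an approximation. The interactions come from the same fit. The script was tested on simulated data with known changes. DESeq2 1.42.0 and limma 3.58.1 (used by edgeR) complete the R tools, DESeq2 as an alternative only. Gene positions, names and overlaps came from RefSeq's annotation of TAIR10.1, and near copies from blastn 2.17.0+, at 95% identity or more over 25% of the transcript or more. Promoters were read from the same genome.

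Counting error is small at this depth for all but the lowest genes: 3 counts over the 6 libraries of a group correspond to 0.0251 CPM at 21 °C and 0.0278 CPM at 37 °C, and intervals and floors cover counting error only, at a confidence level of 95%. The gene lists (40, with 786 genes) and the genes compared were chosen with earlier results of these data known. Named genes are the 15 highest and 15 lowest with a symbol, no overlap of groups, a log2 change of 1 or more and log2 CPM averaging 3 or more, up to 4 highest and 4 lowest called members and up to 2 abundant members not called of each list, both THO5 genes, and the strongest interactions; further members are named where a count needs them, and others were chosen after their values were seen. Names written in the text follow the annotation or its synonyms. Alternatives were other size factors, DESeq2's Wald test, no filter, a replicate block, a covariate for and the omission of libraries with high opposite-strand counts, smaller fits, and the omission of each replicate number; fits of only the 8 compared libraries without such counts and of only the 4 with them were added after seeing the data.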

Additional observations from a re-analysis of the deposited data

Results flagged for a closer look

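Single libraries stood apart from the other 5 of their group by Dixon's criterion at 5 of the 64 groups of 6 values tested, and chance flags about 1 in 20 groups. At 37 °C, replicate 4 had 3790 CPM of HSP101 where the others had 1720 to 2388 CPM, and 1131 CPM of Hsp70b where the others had 472 to 699 CPM. At 21 °C, replicate 4 had 1.29 CPM of HSP18.2 against 0.481 to 0.736 CPM, replicate 3 had 173 CPM of OEP16-1 against 105 to 125 CPM, and replicate 1 had 102 CPM of ASN2 against 47.6 to 67.2 CPM. The heated replicate 4 was also the library with the largest share of chaperone genes, 5.41% of its counts.

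The heat response of nuclei differed from that of cytoplasm by the test of the interaction (edgeR, adjusted over all tested genes, n = 6 libraries in each group, as the log2 fold change in nuclei minus that in cytoplasm). It was more upward in nuclei for AGP3 (4.42), UDG4 (3.95), HCF164 (3.41), LHCB2.3 (3.34), HMGB2 (1.59) and THO5A (1.99). It was more downward, or a smaller rise, in nuclei for HSP17.6II (-9.58), HSA32 (-8.72), HSP17.6A (-4.57), Hsp70b (-4.29), HSP18.2 (-3.07), HSP17.4 (-4.16), HSP90.1 (-0.67), HSP70 (-0.78), HSP101 (-2.46), Hop3 (-1.46), OEP16-1 (-0.84), HIS1-3 (-1.48), FLS2 (-1.88) and CYP707A2 (-2.08). For HSP17.6II and HSA32 the cytoplasm at 21 °C held 0 counts, so these sizes depend on edgeR's prior count.

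The nuclear response of tho5ab differed from that of Col-0 by the same kind of test, as the log2 fold change in the mutant minus that in Col-0. It was more upward in the mutant for HSFA2 (2.63), GRP7 (2.43), HSP17.6II (2.31), MBF1C (2.28), Hsp70b (1.33), HSP70 (1.58), HSP70T-2 (1.47) and OEP16-1 (0.78). It was more downward for THO5A (-3.74), LAC7 (-2.86), RLP19 (-2.30), EXT10 (-2.29) and HMGB2 (-0.81). The call of LAC7 in Col-0 itself was lost without replicate 1 or 5.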

How the results depend on the processing

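The 8212 heat calls became 13458 with the 12 libraries alone, 13253 with the 24 nuclear libraries and 13454 with the 8 libraries without high opposite-strand counts, and ranged from 7217 to 7973 without 1 replicate number. The share of calls that were higher was 47.98% and became 41.3% with DESeq2's size factors, which moved the median of all genes to -0.16. The 2878 interactions with fraction became 4641 by DESeq2's Wald test, and ranged from 2132 to 3095 without 1 replicate number. Without the libraries with high opposite-strand counts they became 2032, and 1719 of the 2878 (59.7%) were kept. The 663 interactions with genotype became 2329 by that test and 386 without the libraries with high opposite-strand counts, and ranged from 386 to 668 without 1 replicate number, with 386 without replicate 1, 419 without replicate 5 and 410 without replicate 6. The cause of these shifts was not tested. Of 798 genes followed, 512 were called, 451 kept the call under every alternative but those added after seeing the data, 61 lost it under at least 1, and 0 reversed. AT3G41762, not called at 0.85, was -2.51 without the libraries with high opposite-strand counts (adjusted p = 0.00203) and -2.45 in the 8 libraries without them alone.

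With the replicate number as a block 7889 genes were called for heat, 2700 for the interaction with fraction and 639 for that with genotype. The deviations of same-numbered libraries correlated at 0.34, -0.53, -0.53, -0.44 and 0.61 for numbers 1 to 5, not over 0.1 for every number, so they were not taken as pairs. What the numbers share is not given in the labels used here.

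Depth limits genes near 0 counts, whose fitted sizes are not bounds. Overlapping genes and near copies made up 34.1% of tested genes.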

Other observations

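AT1G58602, annotated as a disease resistance protein with leucine-rich repeats and chosen after its values were seen, had 746, 799.7 and 962 CPM at 21 °C and 9.75, 11.7 and 14.5 CPM at 37 °C in nuclei (-6.14 ± 0.29, adjusted p = 2.28e-24). In cytoplasm the log2 fold change of AT1G58602 was -3.43 (interaction -2.71 ± 0.49, adjusted p = 5.02e-05), and in tho5ab nuclei it was -6.43.

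AT4G38950, annotated as a microtubule motor protein and also chosen after its values were seen, had 45.5, 58.4 and 79.1 CPM at 21 °C and 2.47, 3.62 and 4.61 CPM at 37 °C in nuclei (-4.11 ± 0.36, adjusted p = 8.36e-14). Its log2 fold change in cytoplasm was -0.98 (interaction -3.13 ± 0.8, adjusted p = 0.00408).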
